A study of Mus musculus with 20 samples.

Results

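Plantaris tendons whose Igf1r gene was targeted in Scx-expressing cells were compared with control tendons after 14 days of a growth stimulus. The comparison takes 8 of the 20 RNA libraries of the series, 4 labelled KO and 4 labelled WT, chosen by their titles. All 8 samples carried flox sites on both Igf1r alleles (IGF1Rflox/flox) and had been given tamoxifen. KO samples had the tamoxifen-activated recombinase on both Scx alleles (ScxCreERT2+/+) and WT samples had none (ScxCreERT2-/-). A group with the recombinase and an intact Igf1r gene was not analysed here, so the recombinase, its place at Scx and the targeting of Igf1r cannot be told apart. Strain, age, sex and the nature of the growth stimulus are not stated in the labels. Whether each library is its own animal is not stated either, and the p-values below then cover only library-to-library spread, part of which may be technical.

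The IGF1 receptor is a tyrosine kinase of the cell surface that binds IGF1 and IGF2 and signals through IRS adaptors, PI3K, Akt and mTOR, which favour protein synthesis and growth and hold FoxO transcription factors out of the nucleus. Scleraxis, the product of Scx, is a transcription factor of tenocytes, the fibroblasts that lay down the type I collagen fibrils of tendon. A Scx-driven recombinase is therefore aimed at tendon fibroblasts. A whole tendon also holds macrophages, vessels, nerves and stray muscle, and the cells in which recombination took place were not measured here. In whole tissue fewer cells of a type and less RNA per cell cannot be told apart.

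Depth at day 14 ran from 36.5 to 55.8 M counts. The most abundant transcripts were those of tendon matrix, with Col3a1, Col1a2 and Col1a1 first, and levels are given below as CPM (counts scaled to library size), which may be compared between libraries but not between genes. Muscle fibre genes took 0.504% to 3.16% of the counts in WT and 0.282% to 3.58% in KO, so that content varied widely but overlapped between the genotypes. The library labelled WT replicate 4 stood apart from the other 3 WT libraries. It lay at -42.7 on the first principal component of the 8 libraries, beside KO replicate 4 at -39.2, with the highest muscle share of the WT group. On the second component, which separated the genotypes, it was the WT library nearest to KO, at 12.9 against 27.7 to 44.97 for the other WT libraries and -35.9 to -18.5 for KO. Its Scx level, 70.3 CPM, and the near absence of Fabp2, Gm11814 and Gm6612 reads were those of the WT group. Gene list counts that move by over 1.5 times when it is left out are given both ways for the lists described.

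Between KO and WT, 337 of the genes tested differed at a Benjamini-Hochberg adjusted p below 0.05 (edgeR quasi-likelihood F test), which is 1.78% of them and is what "called", "rose" and "fell" mean below. In KO, 201 genes rose (1.06%) and 136 fell (0.719%), and 85 and 52 of these changed at least 2-fold. The median log2 fold change was 0.91 among the genes that rose and -0.84 among those that fell, against -0.01 over all genes. Of the called genes, 168 that rose and 125 that fell had no overlap between the 4 KO and the 4 WT libraries, where 2.99% and 3.14% of all genes had none in those directions. Without WT replicate 4 the count was 1672 of 19452 genes (8.6%), 855 higher (4.4%) and 817 lower (4.2%), and all 337 genes were among them in the same direction. WT replicate 4 was the WT library nearest to KO on the component that separated the genotypes. Leaving it out therefore favours finding differences, and here and below that fit is no separate support for the calls. Leaving out any other day 14 library gave between 152 (without WT replicate 1) and 423 calls (without KO replicate 4). The volcano plot shows both sides.

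**Figure D1:**
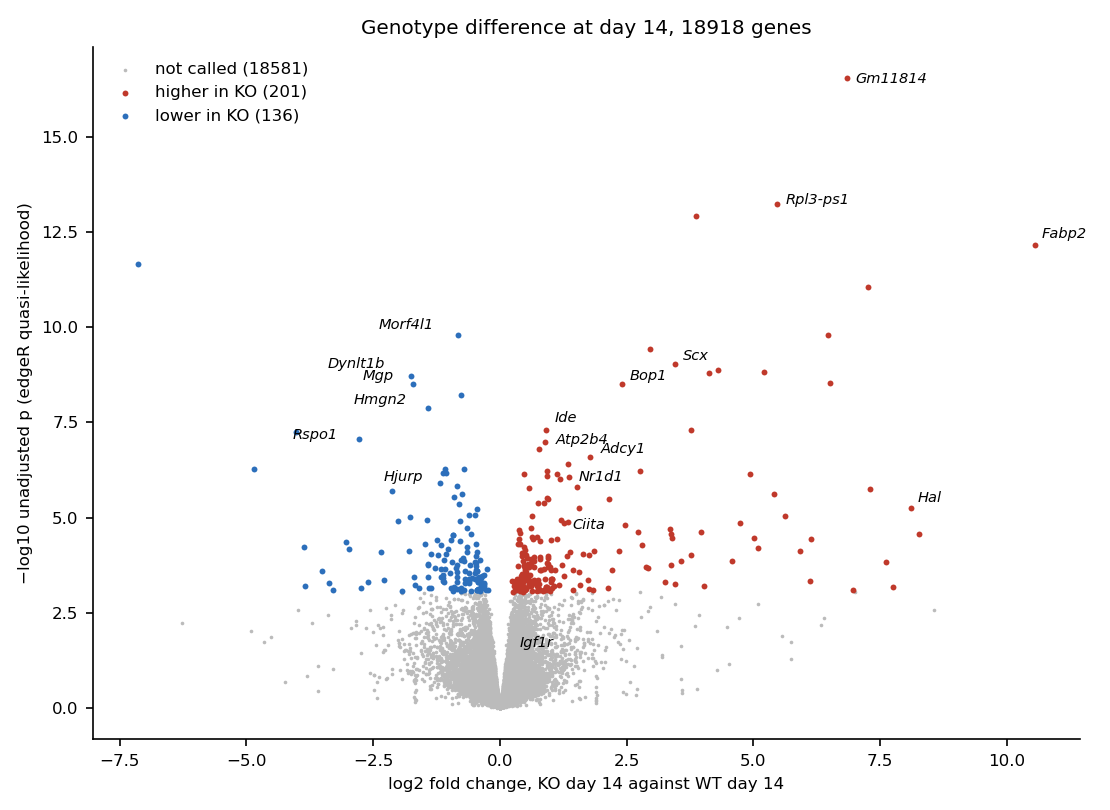
Each point is 1 tested gene, with the log2 fold change of KO against WT at day 14 on the x axis and the negative log10 of the unadjusted p on the y axis. The 201 genes called higher in KO are red and the 136 called lower are blue, and Igf1r, at 0.23, lies among the uncalled genes.

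The reads over the targeted gene were not fewer in KO. Igf1r, which lies at chr7:67952827-68233668 of GRCm38 on the plus strand, stood at 44.6, 40.5, 47.5 and 48.7 CPM in the WT libraries and at 49.8, 52.3, 60.3 and 49.8 CPM in KO. Every KO library lay above every WT library. The log2 fold change was 0.23 ± 0.08 (SE), with an adjusted p of 0.162 by edgeR, and a two-sided exact permutation test of the CPM, 4 against 4, gave p = 0.0286, the smallest that 70 arrangements allow. The counts cover the whole gene and which exons lie between the flox sites is not stated in the labels, so a total that is not reduced does not show whether the receptor's coding sequence was left whole.

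Scx, which carries the recombinase in KO, rose, with every KO library above every WT library. It stood at 121, 142, 125 and 70.3 CPM in WT and at 1294, 885, 860 and 1958 CPM in KO. The groups were far apart, at 114 ± 30.7 against 1249 ± 513 CPM (SD, n = 4 each), a log2 fold change of 3.45 ± 0.30 (adjusted p = 1.73e-06). By the genotypes in the labels, KO held only the recombinase allele of Scx and WT only the native one. The groups therefore compare transcripts of different alleles. Bop1, a ribosome biogenesis factor, rose from 71.4 ± 13.5 to 378 ± 140 CPM, a log2 fold change of 2.40 ± 0.23 (adjusted p = 3.53e-06). The annotation places Scx (chr15:76457452-76459458, plus strand) within the span of Bop1 (chr15:76452989-76477277, minus strand). With no stated strand setting, reads of this pair cannot be told apart. Bop1 was the only call of 38 ribosome biogenesis genes (2.63%, against 1.78% of all genes), of which 35 lay below 0, with a median of -0.18. Without WT replicate 4, 1 of them was called higher and 6 lower (18.4%, against 8.6% of all genes).

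Called genes were denser around Scx than along the rest of chromosome 15. Within 10 Mb, 14 of 304 tested genes, Scx included, were called (4.61%), against 6 of 478 farther away on the chromosome (1.26%) and 1.78% over the genome. The shares inside and outside were 5.8% and 1.39% for 5 Mb, and 3.39% and 1.63% for 20 Mb. Within 1 Mb the called genes were Scx, Bop1, the splicing factor gene Rbfox2 (log2 fold change 0.31, adjusted p = 0.0407) and Gpihbp1, the anchor of lipoprotein lipase on capillaries (-0.91, adjusted p = 0.0439). Rpl3 and the pseudogene Gm6612 lie 3.63 and 4.49 Mb from Scx. The KO group has the recombinase allele on both copies of chromosome 15, so sequence linked to it moves with genotype. The part of linked sequence in these differences was not tested. Called genes also lay close together far from Scx. On chromosome 11, 8 of 45 tested genes starting at 94 to 96 Mb were called, and on chromosome 6, 4 of 17 at 136 to 138 Mb. Over the genome, 17.5% of called genes had another called gene within 50 kb, against 4.32% of the other genes. By chromosome, the share called was 2.56% for chromosome 15 and 2.84% for chromosome 11.

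**Figure D2:**
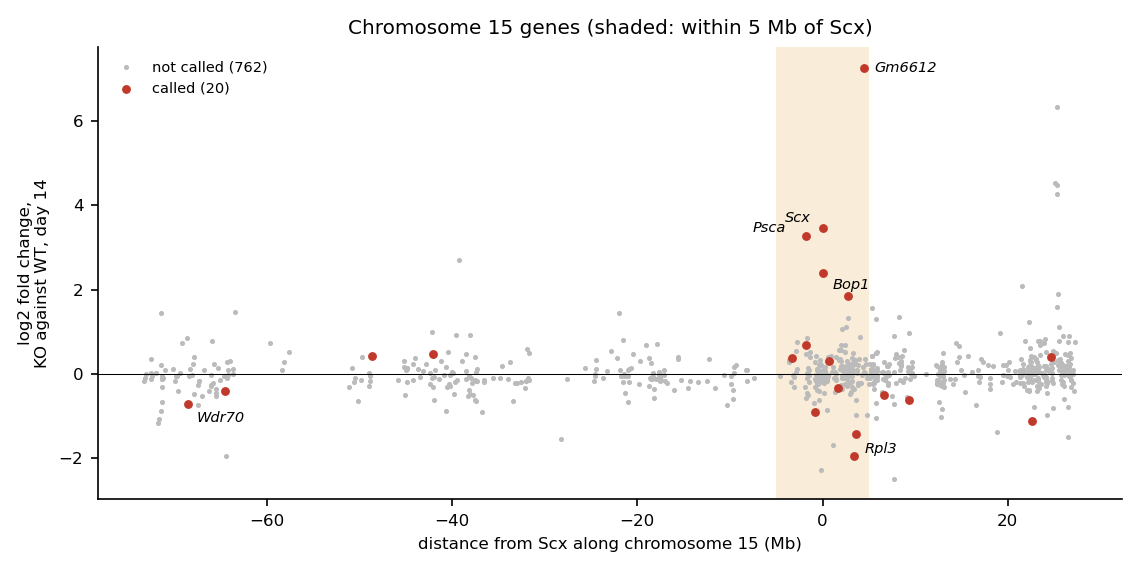
Each point is a tested gene of chromosome 15, by its distance from Scx in Mb (x axis) and its log2 fold change of KO against WT at day 14 (y axis). Of 20 called genes on the chromosome (red), 12 lie in the shaded 5 Mb on either side of Scx.

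Genes of the IGF pathway were not called. Of 10 tested ligands, receptors and adaptors and 12 binding proteins and proteases, none passed, and the medians of both lists, 0.20 and 0.16, were above that of all genes. Igf1, the ligand, stood at 854, 919, 825 and 582 CPM in WT and 612, 416, 648 and 684 CPM in KO. The WT group overlapped with KO only through replicate 4. With all libraries the log2 fold change was -0.43 ± 0.16 (adjusted p = 0.184 by edgeR, exact permutation p = 0.114), and without WT replicate 4 it was -0.55 with an adjusted p of 0.0341. Igf2r, which clears IGF2 from the cell surface, had a log2 fold change of 0.31 (adjusted p = 0.0897), and 0.34 (0.0374) without that library. In 4 of the 10 genes (Igf1r, Igf2r and the adaptors Irs1 and Shc1) every KO library was above every WT library, as in 2.99% of all genes, with log2 fold changes of 0.54 for Irs1 and 0.23 for Shc1. Of the 10, 3 were called without WT replicate 4, 2 higher and 1 lower. Igfbp5, an IGF binding protein, stood at 1155 ± 319 CPM in WT and 1718 ± 450 CPM in KO (adjusted p = 0.136). Downstream, 1 of 32 PI3K, Akt and mTOR genes was called, Sesn2, a stress-induced restraint on mTORC1, at 12.7 ± 3.35 against 23.2 ± 2.64 CPM (log2 fold change 0.87, adjusted p = 0.00145). Of the 32, 6 were called without WT replicate 4, all higher, where 8.6% of all genes were called. Over all 49 lists, 37 of 1155 distinct genes were called (3.2%). None of 22 FoxO factors and FoxO-responsive genes was called, with a median of 0.06, and without that library 2 were called higher and 1 lower, with a median of 0.20.

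**Figure D3:**
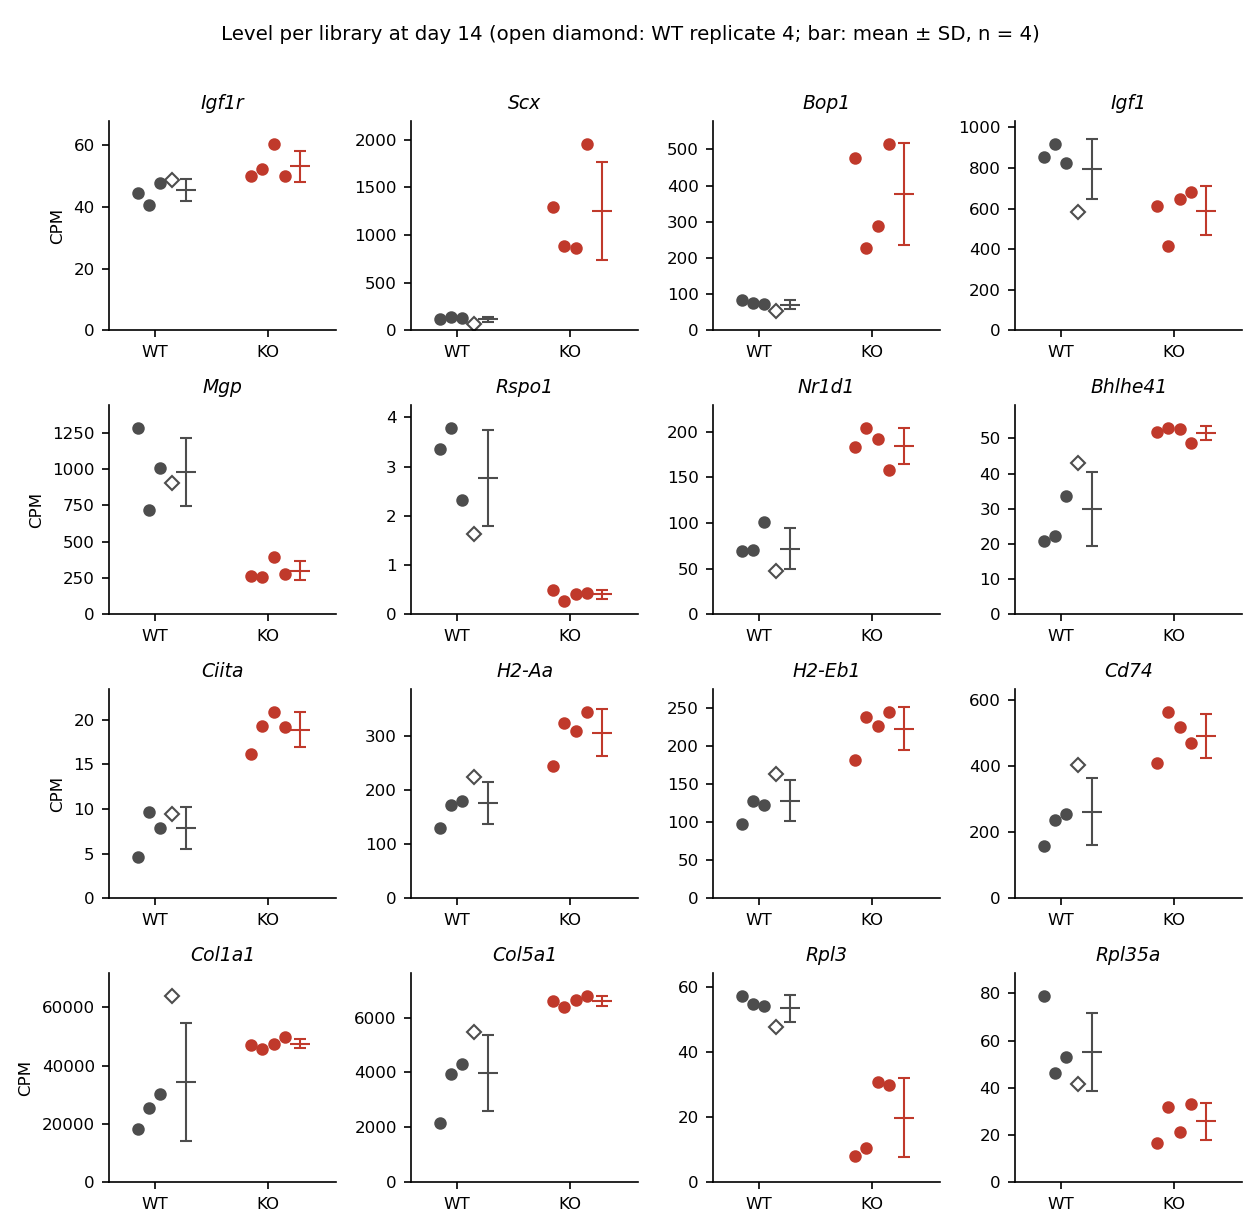
Level in CPM (y axis, from 0) of 16 genes in each of the 4 WT and 4 KO libraries at day 14; bars give the mean and SD of 4. The open diamond is WT replicate 4, which lies beyond the other 3 WT libraries on the side of KO for Igf1, H2-Aa and Bhlhe41, and above every KO library for Col1a1.

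The collagen genes that were called were higher in KO. Col5a1, the type V collagen chain that nucleates fibrils, stood at 2161, 3930, 4326 and 5491 CPM in WT and at 6592, 6378, 6632 and 6788 CPM in KO. The KO libraries were tightly grouped and all above WT, with a log2 fold change of 0.73 ± 0.18 (adjusted p = 0.0434), and it was the only call among 11 fibrillar collagens. Among 19 other collagens only Col15a1, a basement membrane zone collagen, was called, at 0.85 (adjusted p = 0.0486). The shares called were 9.09% of the fibrillar and 5.26% of the other collagens, beside 1.78% of all genes. Both calls were near the threshold: Col5a1 lost its call in 8 and Col15a1 in 12 of 18 other settings of the fit. The chains of type I collagen were not called with all libraries. Col1a1 stood at 18206, 25648, 30345 and 63886 CPM in WT and at 47126, 45842, 47399 and 49754 CPM in KO. The first 3 WT libraries were all below KO and replicate 4 was above every KO library, so the call rests on that library: the log2 fold change was 0.46 (adjusted p = 0.359) with it and 0.94 (0.00171) without it. Col1a2 went from 0.54 (adjusted p = 0.147) to 0.81 (0.00437) in the same way. Without WT replicate 4, 3 of 11 fibrillar and 6 of 19 other collagens were called, all higher, against 4.4% of all genes called higher in that fit, and their medians went from 0.31 to 0.56 and from 0.49 to 0.64.

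Other matrix calls concerned processing and lubrication. Loxl2, a collagen cross-linking oxidase, rose from 445 ± 85.0 to 639 ± 35.7 CPM (log2 fold change 0.52, adjusted p = 0.0354), and Pcolce2, an enhancer of procollagen cleavage, by 0.73 (0.0494), the only calls of 30 collagen processing genes. Prg4, the lubricin of gliding surfaces and paratenon, stood at 1321, 1017, 1282 and 1958 CPM in WT and at 2793, 4224, 3051 and 2479 CPM in KO. The groups did not overlap, and the log2 fold change was 1.17 ± 0.28 (adjusted p = 0.0417). Matn2, an adaptor protein of matrix networks (0.47, adjusted p = 0.0478), was the other call of 40 proteoglycans and glycoproteins. Timp2, an inhibitor of metalloproteinases, rose by 0.56 (adjusted p = 0.0222), the only call of 26 degrading enzymes and inhibitors, and Prrx1, a factor of mesenchymal progenitors, by 0.47 (0.0108). When WT replicate 4 was left out, 5 of the 30 processing genes were called higher and 1 lower (20% in all). Of the 40 proteoglycans and glycoproteins 7 were higher and 3 lower (25%). Of the 26 degrading enzymes and inhibitors 2 were higher and 1 lower (11.5%). In that fit 8.6% of all genes were called. With all libraries the shares of these lists were 6.67%, 5% and 3.85%, beside 1.78% of all genes. Apart from Scx, no tenogenic factor or mature tendon gene of 19 was called with all libraries. Without WT replicate 4 the list had 4 calls, all higher (21.1%, against 8.6% of all genes). The tendon factor Mkx stood at 47.0 ± 8.70 and 40.2 ± 4.02 CPM, and Tnmd, the tendon membrane protein tenomodulin, at 1485 ± 468 in WT against 881 ± 217 CPM in KO (log2 fold change -0.75, adjusted p = 0.168).

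Mgp fell strongly and was well expressed in both groups. It encodes matrix Gla protein, a secreted inhibitor of calcification, and stood at 1283, 719, 1009 and 903 CPM in WT and at 262, 260, 396 and 277 CPM in KO. The lowest WT library was well above the highest KO library, and the mean was 3.28-fold lower in KO (log2 fold change -1.71 ± 0.17, adjusted p = 3.53e-06). It was the only call of 19 mineralization and bone cell genes, whose median was 0.15, and no chondrocyte marker of 22 was called. In the fit without WT replicate 4, 1 of 21 tested mineralization genes was called higher and 3 lower, with a median of 0.60. That is 19% of the list, against 8.6% of all genes, and 1 chondrocyte marker was called higher. The neighbours of Mgp on chromosome 6, Art4 and Arhgdib, lie 14.7 and 47.8 kb from it and also fell. Their log2 fold changes were -3.85 (adjusted p = 0.0437) and -0.66 (0.00482), and Art4 was near 0 CPM in KO. Art4 was weakly read in general: it did not reach 1 CPM in 4 libraries, and it lost its call in 9 of the 16 other settings that tested it. The mean level of Mgp in WT was 294 CPM at day 7 and 978 CPM at day 14, and in KO the means were 168 and 299 CPM. The difference between the genotype effects at both days, -0.91, had an unadjusted p of 0.000883 and did not pass adjustment (adjusted p = 0.17).

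Few secreted signals were called, in both directions. Rspo1, an enhancer of Wnt signalling, stood at 3.35, 3.79, 2.32 and 1.64 CPM in WT and at 0.504, 0.267, 0.416 and 0.433 CPM in KO. The groups were well separated, with a 6.83-fold lower level in KO (log2 fold change -2.77 ± 0.33, adjusted p = 7.09e-05). The Wnt modulator Dkk2 rose by 0.76 (adjusted p = 0.0362), and these were the calls among 25 Wnt ligands and inhibitors. Of 38 TGF-beta and BMP pathway genes, Tgfb2, a TGF-beta ligand, rose by 0.61 (adjusted p = 0.0167), Gdf7, a BMP family ligand, by 2.14 (0.0457), and Fstl3, which binds activin and myostatin, fell by 0.73 on the log2 scale (0.0164). Fgf2, a growth factor for fibroblasts, rose by 0.57 (adjusted p = 0.0434), the only call of 27 PDGF, VEGF and FGF genes. The shares called were 7.9% of the TGF-beta and BMP genes, 8% of the Wnt genes and 3.7% of the PDGF, VEGF and FGF genes, against 1.78% of all genes. With WT replicate 4 left out, 6 of the TGF-beta and BMP genes were called higher and 1 lower (18.4%). Of the Wnt genes 2 were higher and 1 lower (12%), and 3 of the PDGF, VEGF and FGF genes were higher (11.1%). In that fit 8.6% of all genes were called. Gdf7 is weakly read, at 0.456 CPM in WT and 2.03 CPM in KO. Cell cycle genes, 46 in all, gave no call and a median of -0.03 (1 call, higher, without WT replicate 4), and Cdkn2a, a cell cycle inhibitor gene, fell from 2.73 ± 1.49 to 0.899 ± 0.346 CPM (adjusted p = 0.0453) with 1 KO library above 1 WT library. Hjurp, the chaperone that loads the centromeric histone, fell from 176 ± 25.2 to 84.8 ± 19.7 CPM (-1.06, adjusted p = 0.000371). Its neighbour Mroh2a lies 181 bases from it, and both fell.

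Ciita and 3 genes for MHC class II chains rose in KO. Class II molecules are pairs of alpha and beta chains on antigen-presenting cells, their transcription depends on the coactivator encoded by Ciita, and their promoters share a set of short boxes, of which the Y box is an inverted CCAAT sequence. Promoters of class II genes are shown because H2-Aa and H2-Eb1 rose together, and that of H2-DMb1, which was not called with all libraries, for comparison. Of 7 class II genes looked up, 4 had a promoter in the RefSeq table (GRCm38.p6), and 3 of these hold the Y-box letters TGATTGG, on the gene's own strand, in the 150 bases before the start. The 150 bases before each start are printed 5′ to 3′ on the gene's own strand, with TGATTGG and, where present, the X-box-like letters CTAGNAAC in capitals.
H2-Aa: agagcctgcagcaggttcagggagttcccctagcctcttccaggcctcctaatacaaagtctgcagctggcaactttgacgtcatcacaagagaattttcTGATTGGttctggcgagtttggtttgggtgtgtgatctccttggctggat
H2-Eb1: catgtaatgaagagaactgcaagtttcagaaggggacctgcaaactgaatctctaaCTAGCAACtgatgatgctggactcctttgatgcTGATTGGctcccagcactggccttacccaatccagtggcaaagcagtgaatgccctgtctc
H2-DMb1: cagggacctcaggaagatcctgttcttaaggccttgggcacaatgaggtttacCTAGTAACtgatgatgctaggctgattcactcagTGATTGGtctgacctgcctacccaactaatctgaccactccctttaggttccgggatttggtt
These stretches are chr17:34287824-34287973 (minus strand), chr17:34305717-34305866 (plus) and chr17:34153041-34153190 (plus). The first base of TGATTGG lies 50, 61 and 63 bases before the start, and that of CTAGNAAC 94 and 97 bases before it in H2-Eb1 and H2-DMb1. Searched on both strands in the 250 bases before the start, TGATTGG is present in 7.23% and CTAGNAAC in 3.06% of all 32851 promoters of the table. A match is a description of the letters only.

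Ciita stood at 4.63, 9.70, 7.84 and 9.44 CPM in WT and at 16.2, 19.3, 20.9 and 19.2 CPM in KO. Every KO library was above every WT library, with a log2 fold change of 1.26 ± 0.22 (adjusted p = 0.00387). H2-Aa, the alpha chain of I-A, stood at 130, 172, 179 and 223 CPM in WT and at 244, 324, 308 and 344 CPM in KO, a log2 fold change of 0.79 ± 0.16 (adjusted p = 0.0157). H2-Eb1, the beta chain of I-E, rose from 128 ± 26.9 to 222 ± 28.1 CPM, again without overlap (0.80, adjusted p = 0.0167), and H2-Ab1, the beta chain of I-A, from 114 ± 37.3 to 209 ± 32.9 CPM (0.88, adjusted p = 0.0354), where WT replicate 4 lay just above the lowest KO library. In all 3 chain genes WT replicate 4 was the WT library nearest to KO. Cd74, the invariant chain that escorts class II molecules, had no overlap either, at 262 ± 102 against 490 ± 65.6 CPM, and missed the threshold with an adjusted p of 0.0507. Without WT replicate 4, Cd74 (1.19, adjusted p = 0.0032), H2-DMa (0.73, 0.0455) and H2-DMb1 (0.65, 0.0407), the last 2 encoding the peptide-loading dimer, were called as well.

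With all libraries, 4 of 15 genes of MHC class II and dendritic cells rose and 1 fell, against the 1.78% called over all genes, and without WT replicate 4 the counts were 7 and 1, against 8.6%. The gene that fell in both was Zbtb46, a transcription factor of conventional dendritic cells (-0.45, adjusted p = 0.0478). The integrin gene Itgax, another dendritic cell marker, was not called (-0.40, adjusted p = 0.626), and Ptprc, carried by leukocytes, stood at 84.8 ± 12.9 CPM in WT and 63.6 ± 9.44 CPM in KO (adjusted p = 0.0985). None of 28 macrophage markers was called (1, lower, without WT replicate 4), and their summed share was 0.467% to 0.534% of counts in WT and 0.363% to 0.468% in KO. Of 13 mast cell and 21 T and NK cell markers none was called either. Of the T and NK cell markers 18 lay below 0, with a median of -0.53, and their summed share was 0.00303% to 0.00570% in WT and 0.00206% to 0.00283% in KO, with no overlap. The highest share was that of WT replicate 4, and without that library the median of these markers was -0.12. At day 7 their median was 0.33. The calls among 11 B and plasma cell genes and 9 neutrophil genes were the lower Cd79b and the higher Mpo, both under 2 CPM. These are 9.09% and 11.1% of the lists, against 1.78% of all genes, and Mpo overlapped between the groups. The share of class II and dendritic genes summed to 0.0586% to 0.102% in WT and 0.102% to 0.140% in KO. Levels per antigen-presenting cell were not measured.

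Genes of the circadian clock gave 2 calls of 19, both higher (10.5%, against 1.78% of all genes). Nr1d1, the clock repressor REV-ERB alpha, stood at 69.2, 70.9, 101 and 47.3 CPM in WT and at 183, 204, 192 and 158 CPM in KO. The highest WT library was below the lowest KO library (log2 fold change 1.36 ± 0.19, adjusted p = 0.000424). Nr1d1 shares 1075 bases of its annotated span with Thra, the thyroid hormone receptor alpha gene on the opposite strand, which also rose (0.42, adjusted p = 0.0316), and reads in that stretch cannot be assigned without strand. Bhlhe41, the repressor DEC2, stood at 20.8, 22.3, 33.7 and 43.1 CPM in WT and between 48.8 and 53.0 CPM in KO (0.79 ± 0.17, adjusted p = 0.0244). Arntl, whose protein BMAL1 drives the clock, spread over the WT libraries, at 80.2, 87.6, 43.3 and 12.6 CPM, and stood at 36.4, 33.8, 34.2 and 25.7 CPM in KO. Its lowest value was that of WT replicate 4, where the clock output factor Tef was highest, at 247 CPM against 73.6 to 149 CPM in the other WT libraries. Arntl was not called (-0.78, adjusted p = 0.372). Without WT replicate 4, Arntl (-1.11, adjusted p = 0.0294) and Clock (-0.41, 0.0332) were called lower. Cry2 (0.54, 0.0105) and Tef (0.86, 0.0183) were called higher. That fit called 6 of 19 in all (31.6%), against 8.6% of all genes. The hour of sampling is not stated in the labels, and its part in these levels was not tested.

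Ribosomal protein genes leaned lower in KO by small amounts. Of 83 tested, 78 had a log2 fold change below 0 and the median was -0.29, against -0.01 over all genes. Of these genes 4 were called (4.82%, against 1.78% of all genes): Rpl3, Rpl35a, Rpl13 and Rpl10a. Rpl35a stood at 79.0, 46.5, 53.2 and 41.8 CPM in WT and at 16.7, 31.9, 21.4 and 33.1 CPM in KO, with no overlap (log2 fold change -1.09 ± 0.23, adjusted p = 0.0182). Rpl13 and Rpl10a both fell by 0.44 on the log2 scale (adjusted p = 0.0474 and 0.0478). The genes took 0.619% to 0.976% of counts in WT and 0.540% to 0.614% in KO. Without WT replicate 4 the median was -0.36 and 40 of 83 were called (48.2%), all lower. In that fit 8.6% of all genes were called and 4.2% were called lower. Endoplasmic reticulum chaperones followed the same course, with 17 of 18 below 0 and none called, and 5 called lower (27.8%) without that library. Among these was Hspa5, the chaperone BiP, at 920, 886 and 869 CPM in the first 3 WT libraries and 405 CPM in WT replicate 4, against 501 to 591 CPM in KO (-0.46, adjusted p = 0.197 with it and -0.67, 0.00155 without it). Tmed2, a cargo receptor of the early secretory path, fell in either case (-0.80, adjusted p = 0.00154).

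**Figure D4:**
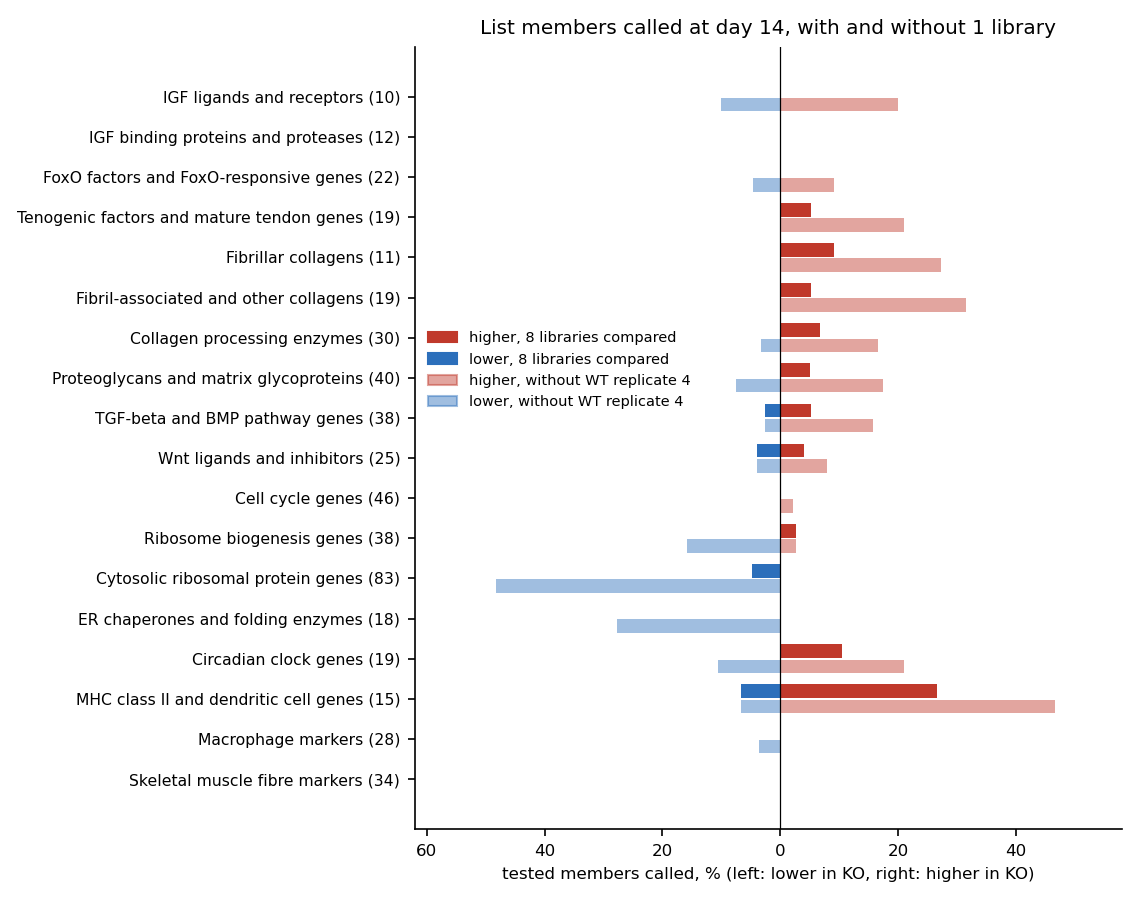
Share of each gene list's tested members (number in brackets) called higher in KO (red, to the right) or lower (blue, to the left), in percent; dark bars use all libraries and pale bars leave out WT replicate 4. The pale bars are long for cytosolic ribosomal proteins, where 40 of 83 were called lower, and for MHC class II genes, where 7 of 15 were called higher. Over all genes 1.78% were called with all libraries and 8.6% without WT replicate 4.

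Rpl3 had the largest change of the ribosomal protein genes and a processed copy that moved the opposite way. Rpl3 (chr15:80077791-80091868, minus strand) stood at 57.3, 54.7, 54.1 and 47.6 CPM in WT and at 8.09, 10.6, 30.8 and 30.01 CPM in KO, a log2 fold change of -1.42 ± 0.30 (adjusted p = 0.0207). The pseudogene Rpl3-ps1 (chrX:13202571-13203780, plus strand) stood at 0.290, 0.359, 0.321 and 0.352 CPM in WT and at 18.8, 20.3, 10.8 and 9.64 CPM in KO, a log2 fold change of 5.47 ± 0.29 (adjusted p = 5.45e-10). The KO libraries with the least Rpl3, replicates 1 and 2, were those with the most Rpl3-ps1. The copies differ at 2 of 1210 aligned bases. A stretch of 90 bases of the GENCODE vM21 transcripts, bases 1 to 90 of Rpl3-ps1 and 80 to 169 of Rpl3, shows how near they are, with the base that differs in capitals.
Rpl3-ps1: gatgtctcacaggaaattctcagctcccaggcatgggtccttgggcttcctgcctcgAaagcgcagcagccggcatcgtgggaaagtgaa
Rpl3: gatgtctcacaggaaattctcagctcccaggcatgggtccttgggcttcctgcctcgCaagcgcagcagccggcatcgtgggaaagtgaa
A read that misses both differing bases fits either gene, so the split between the pair is uncertain.

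Processed pseudogenes, intronless copies of spliced transcripts, were called more often than genes in general among those that passed the count filter. Of those annotated as processed pseudogenes 4.63% were called, against 1.78% of protein-coding genes. With the transcribed class 25 were called, 22 higher and 3 lower. The filter keeps a gene read in enough libraries of any group. Gm6612, at 0.040 CPM in WT and 6.47 CPM in KO, passed it only through libraries outside the WT group. Copies silent in every group were not tested, so the share called and the split of directions depend on the filter. A tested protein-coding transcript matched 17 of the 22 higher pseudogenes at 95% identity or more over at least 80% of their length. In 15 of these 17 pairs the coding gene had a log2 fold change below 0, and 5 coding genes were called lower: Rpl3, Psmb5, Mrpl27, Rtraf and A430005L14Rik. Over all genes the median was -0.01 and 0.719% were called lower. The pairs were picked through pseudogenes that passed the filter and were called higher, so these counts do not describe coding genes in general. Gm3375, a copy of the proteasome subunit gene Psmb5 at 98.9% identity, was read in KO at 5.81, 0.119, 4.69 and 12.4 CPM and in WT at 0 to 0.0989 CPM. Psmb5 stood at 24.0 ± 3.45 CPM in WT and 15.9 ± 3.83 CPM in KO (-0.60, adjusted p = 0.0281), and its highest KO value, 21.5 CPM, was in KO replicate 2, where Gm3375 was nearly absent. Gm11814, whose nearest coding transcript is Ldha at 88.7% identity, was the smallest p of the comparison (20 counts in WT and 1876 in KO, log2 fold change 6.84, adjusted p = 5.36e-13). Gm3375 and Gm11814 were chosen after their values were seen.

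Among coding genes, the largest rise was that of Fabp2, an intestinal fatty acid binding protein. It had 1 count over the 4 WT libraries and 1765 over the 4 KO libraries, a ratio of 2229 after scaling by depth (95% counting interval 399.6 to 88100). Hal, the histidine ammonia-lyase, stood at 0.483, 0.251, 0.420 and 0.302 CPM in WT and at 138, 169, 90.7 and 1.02 CPM in KO. It was high in 3 KO libraries and near the WT level in KO replicate 4 (log2 fold change 8.11 ± 1.22, adjusted p = 0.00188). Other large rises were in moderately or weakly read genes. Adcy1, an adenylyl cyclase, rose from 4.49 ± 1.48 to 15.4 ± 5.18 CPM (1.78, adjusted p = 0.000183), the Eph receptor gene Epha5 by 1.76 (0.0149), the cell adhesion gene Opcml by 1.56 (0.00188) and Sema3e, a semaphorin, by 1.51 (0.000703). Car11, a carbonic anhydrase-related gene, rose by 1.34 (adjusted p = 0.000272), and Mid1, a ubiquitin ligase gene, by 1.18 (0.000473).

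Well expressed genes with small but tight changes carried some of the smallest p-values. Ide, the insulin-degrading enzyme, stood at 94.7, 87.3, 81.8 and 87.4 CPM in WT and at 160, 154, 152 and 194 CPM in KO. The lowest KO library was far above the highest WT library (log2 fold change 0.91 ± 0.11, adjusted p = 4.51e-05). Atp2b4, a plasma membrane calcium pump, rose from 120 ± 7.05 to 223 ± 26.3 CPM (0.90, adjusted p = 7.94e-05), Esr1, the estrogen receptor alpha, from 17.7 ± 3.56 to 33.8 ± 3.42 CPM (0.93, adjusted p = 0.000356) and Clec16a, a regulator of mitophagy next to Ciita, by 0.93 (0.000404). Zfp868, Vezf1 and Proser2 completed the genes picked for small p, at 0.78, 0.48 and 1.13. Ccl24, a chemokine, rose by 1.76 (adjusted p = 0.0467) as the only call of 33 cytokines and chemokines (3.03%, against 1.78% of all genes). The groups overlapped, with KO replicate 4 at 5.10 CPM and WT replicate 1 at 5.14 CPM, and the call was lost in 10 of 18 other settings of the fit. Of the cytokine and chemokine list 25 genes lay below 0, with a median of -0.35, and its summed share was 0.110% to 0.139% in WT and 0.0791% to 0.107% in KO, with no overlap.

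On the lower side, Morf4l1, a chromodomain protein of histone acetylation complexes, stood at 46.5, 41.7, 40.3 and 37.4 CPM in WT and at 23.0, 24.1, 22.8 and 23.1 CPM in KO. The KO values were almost equal to each other (log2 fold change -0.83 ± 0.07, adjusted p = 3.78e-07). Dynlt1b, a dynein light chain gene, fell from 7.49 ± 0.756 to 2.23 ± 0.124 CPM (-1.75, adjusted p = 2.55e-06), and its neighbour Tmem181b-ps by 1.43 on the log2 scale (0.00336). They lie 2.2 kb apart on chromosome 17, and Dynlt1b belongs to a family of near-identical copies, so its count is uncertain. Hmgn2, a nucleosome-binding protein, stood at 13.6 to 22.3 CPM in WT and 5.47 to 7.64 CPM in KO (-1.41, adjusted p = 1.29e-05), and the mitochondrial genes Cisd3 and Mrpl27 had log2 fold changes of -1.24 and -0.85. Clec7a, the beta-glucan receptor dectin-1 of myeloid cells, fell by 1.09 on the log2 scale (adjusted p = 0.0237). GENCODE vM21 lists Clec7a as a polymorphic pseudogene. Ctsd, a lysosomal protease, fell by 0.45 (adjusted p = 0.0129). Chst5, Kcnk1, Prph, Wdr70, Sh3bgrl3, Acot11 and Hapln4 also fell, with log2 fold changes from -1.67 (Chst5) to -0.70 (Wdr70).

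Set beside day 7, which uses other libraries of both genotypes, most day 14 differences had the same sign. Of the 201 genes that rose at day 14, 189 were above 0 at day 7 and 152 were called higher there. Those 152 are 75.6% of the day 14 set and 8.55% of the 1777 genes (9.39%) called higher at day 7. Of the 136 that fell, 130 were below 0 at day 7 and 76 were called lower, 55.9% of the day 14 set and 7.41% of 1025 genes (5.42%). At day 7, 14.8% of all genes were called. Six2, a homeobox gene, was the only gene called in opposite directions: it was higher in KO at day 7 (0.96, adjusted p = 0.0305) and lower at day 14 (-1.48, 0.00935), and the difference between the days had an adjusted p of 0.129 by edgeR. It was among the genes that DESeq2 called for that difference, and edgeR called it when KO day 7 replicate 1 was left out.

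The test of the difference between the genotype effects at both days called no gene by edgeR, with 2039 genes (10.8%) at an unadjusted p below 0.05, none by limma-voom and 190 by DESeq2. In the authors' deposited table, a column whose header names KO day 14 against WT day 7 holds log2 fold changes equal to that table's day 14 genotype effect minus its day 7 one (largest gap 2e-09). That column of the authors' deposited table has no gene past the threshold, with a smallest false discovery rate of 0.0963. Several genes called at day 14 and not at day 7 are therefore not shown to differ between the days. Eya2, a transcriptional coactivator, fell from 15.4 ± 1.30 to 7.23 ± 0.978 CPM at day 14 (-1.09, adjusted p = 0.000341), with day 7 means of 4.61 and 4.19 CPM, and the difference of the effects had an adjusted p of 0.135. Cercam, a cell adhesion molecule gene that overlaps 2600006K01Rik on the other strand, fell from 265 ± 45.8 to 121 ± 31.5 CPM at day 14 (-1.13, adjusted p = 0.000371) with day 7 means of 121 and 98.98 CPM (adjusted p of the difference 0.182). In the control tendons both genes were higher at day 14 than at day 7, by 1.74 and 1.13 on the log2 scale, a comparison that shares the WT day 14 libraries.

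**Figure D5:**
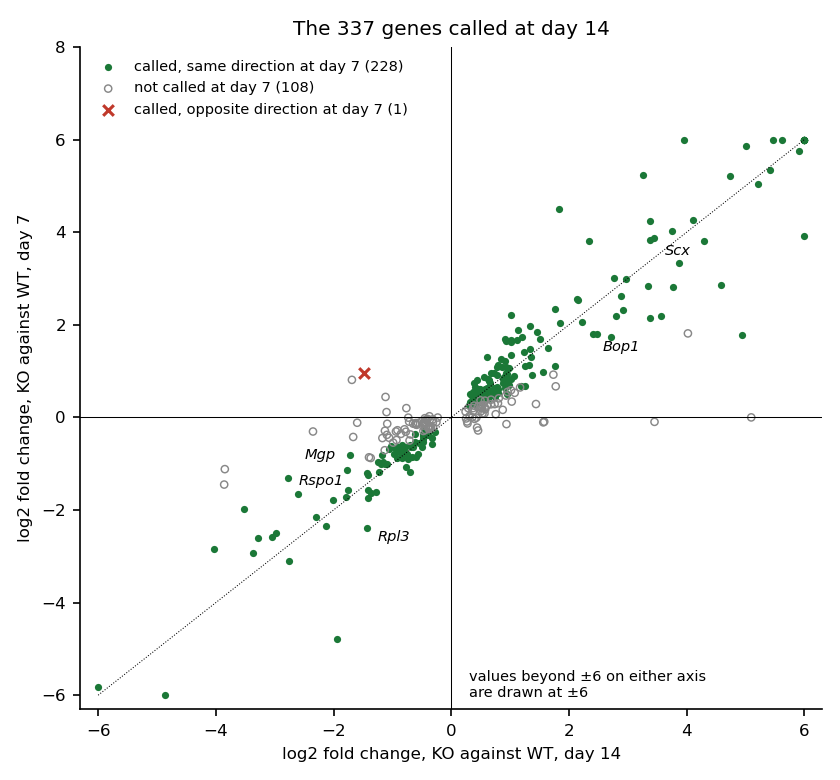
Each point is 1 of the 337 genes called at day 14, with its log2 fold change of KO against WT at day 14 on the x axis and at day 7 on the y axis; the dotted line marks equal values. Filled green points were also called at day 7 in the same direction, open points were not called there, and the cross is Six2.

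The authors' deposited table of day 14 comparisons, over 13266 genes, lists 190 higher and 116 lower genes. Of the genes in it, 261 were called here and 260 of these were called in the same direction in that table.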

How the data were processed

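RNA from mouse plantaris tendon was sequenced in 20 libraries, 4 in each of 5 groups taken from the titles. The authors deposited raw counts per gene for 24885 genes. The submitters' processing notes name FastQC, STAR, edgeR and the mm10 build; no source used here gives versions, the counting tool, the annotation or the strand setting. The authors' own edgeR table, with log2 fold changes, p-values and false discovery rates per the file headers, entered no test.

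Counts were fitted in R 4.3.3 with edgeR 4.0.16 (filterByExpr, TMM, robust quasi-likelihood, 1 mean per group over all 20 libraries), which kept 18918 genes. The fit was tested on simulated data. The alternatives were other scaling (RLE, upper quartile), other filters (none, or 1 CPM in 4 libraries), other tools (DESeq2 1.42.0, and voom of limma 3.58.1), fewer libraries in the fit, a block for the replicate number, a muscle score as covariate, and omission of each day 14 library (for the difference between days, of each day 7 and day 14 library). Replicate libraries differed by more than sampling noise (lowest chi-square per degree of freedom 31.1). Counting intervals are 95% and cover counting error only, since reads are not independent molecules. Gene positions are from GENCODE vM21 and promoters from RefSeq, both GRCm38.

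The comparison, the 49 gene lists and the rules were chosen with earlier results of these data known. Named genes were Igf1r, Scx, Bop1 and Igf1, then in each direction up to 12 called genes with the largest change and 8 more with the smallest p (at least 5 CPM in the higher group, no overlap of libraries, a proper name), up to 4 called members or 2 uncalled ones of each list, and called genes within 1 Mb of Scx. Other genes named were chosen after their values were seen.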

Additional observations from a re-analysis of the deposited data

Results flagged for a closer look

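Of 196 pairs of a named gene and a group of 4 libraries, 12 (6.12%) held a library whose gap to the nearest other, over the group's whole range, was above Dixon's 95% critical value, where chance gives about 1 in 20. WT replicate 4 was lowest for Hspa5 (ratio 0.901) and Rpl10a (0.883) and highest for Esr1 (0.854). WT replicate 1 was lowest for Igf2r (0.968) and highest for Ccl24 (0.834) and Pcolce2 (0.83). KO replicate 3 was highest for Mgp (0.872), at 396 CPM against 260 to 277 CPM in the other KO libraries, and for Ctsd (0.867). KO replicate 2 was highest for Cercam (0.871) and KO replicate 1 for Clock (0.894). For Fabp2 (WT replicate 2) and Art4 (KO replicate 4) the ratio was 1, since the other 3 libraries of the group held no counts.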

How the results depend on the processing

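The 337 calls became 759 with DESeq2, 86 in a fit of the 8 day 14 libraries alone and 190 without the WT day 0 group; the calls in the gene lists, 37, became 82, 9 and 18. The last 2 of these fits hold fewer libraries. Leaving out 1 library gave 152 to 1672 calls and 15 to 166 in the lists. WT replicate 4 accounts for the upper ends, and leaving out any of WT replicates 1 to 3 (152, 170 and 184 calls) or KO replicates 1 to 3 (176, 198 and 167) lowered the count by over 1.5 times. Without KO replicate 4 there were 423. No call reversed in any setting, and 57 of 98 named genes changed their side of the threshold in at least 1 of 18 settings, so most calls near the threshold depend on the setting. RLE and upper-quartile scaling moved the median over all genes from -0.01 to -0.00885 and -0.0126. Igf1r was not called in any setting and Scx was called in every one. The difference of the genotype effects between days gave 190 calls with DESeq2 and 0 to 11 when 1 library was left out (11 without WT day 7 replicate 1). Within 1 Mb of Scx 4 genes were called, against 14 within 10 Mb. With the replicate number as a block there were 345 calls, 34 in the lists, and 0 for the difference between days. Correlations of same-numbered KO and WT libraries were -0.0468, -0.143, 0.272 and 0.214 for numbers 1 to 4. Not every pair is above 0.1, so the numbers were not taken to pair the samples; WT replicates 3 and 4 correlated best with their own number and replicates 1 and 2 did not. Depth limits what can be said of genes with few counts, such as Fabp2 in WT.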
